A study of Mus musculus with 12 samples.

Results

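The cytosolic ribosomal protein genes were described in bulk RNA sequencing of macrophages sorted from mouse bone marrow. Members were all rows of the deposited table whose symbol is Rpl or Rps followed by a number, with an optional a, x, y or l ending, together with Rplp0, Rplp1, Rplp2 and Rpsa. Rows with a -ps ending, which name pseudogenes, were left out. The rule found 86 genes among 18467 rows, 50 named for the large subunit (Rpl) and 36 for the small subunit (Rps). Rpl36al, Fau and Rack1 also encode ribosomal components but fall outside the rule, so they are given apart from the members. In GENCODE M21 (GRCm38), 5 members were annotated as processed pseudogenes in spite of their symbols: Rpl6l, Rps12l1, Rps3a2, Rps3a3 and Rps4l. The remaining members were annotated as protein coding.

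The 12 libraries formed 4 groups of 3, and the 3 of a group came from different mice. General macrophages were the CD11b+F4/80+ cells and niche macrophages the VCAM1+CD163+CCR3+ cells among live single cells of flushed femur and tibia, after red cell lysis. Metastatic marrow came from female Albino B6 mice whose caudal artery had been injected with E0771 cells, a mouse breast cancer line, at 8 weeks of age, and normal marrow came from healthy control mice, for which no age is given. No genotype other than the strain is given for any group, and the time from injection to collection is not given in the sources used here. The groups are called general normal, general metastatic, niche normal and niche metastatic. In 3 of them the libraries carry replicate numbers 1 to 3. The columns of niche normal carry numbers that differ from the sample titles, and its libraries are called A, B and C.

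Each cytosolic ribosome joins a small subunit, which reads the messenger RNA, to a large subunit, which forms the peptide bonds. The proteins of both subunits are made in matched amounts from genes scattered over the genome, and their messengers begin with a run of pyrimidines through which growth signals control their translation. Many of these genes hold small nucleolar RNAs (snoRNAs, guides for ribosomal RNA modification) in their introns, and mammalian genomes carry numerous retrotransposed copies of them. In the annotation, 30 of the 86 members held 58 snoRNA genes within their bounds, 20 of them large-subunit and 10 small-subunit genes.

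Library totals ran from 13687945 to 30332417 counts, and 3 counts were worth 0.109 to 0.242 CPM (the count relative to the scaled library total, as used throughout). Small non-coding RNA rows took 10.001 to 27.9% of the counts. The summed level of 11 macrophage markers was 282 to 478 CPM in the general macrophages, 5430 to 6176 CPM in niche normal and 2468 to 4418 CPM in niche metastatic, while 10 neutrophil markers summed to 15492 to 25921 CPM in the general macrophages and 10535 to 13622 CPM in the niche macrophages. All markers of both lists were counted in each group. In bulk samples, fewer cells of a type and less RNA per cell cannot be told apart.

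Among members, copies of nearly the same sequence bear on how counts can be divided between rows. Rps3a2 and Rps3a1 matched at 788 of 792 aligned bases (99.5%), and 76.7% of the 50-base windows of Rps3a2 occurred unchanged in the Rps3a1 transcript. The stretch with the most differences is shown because, within the aligned part, such bases tell the rows apart. The merged exons of Rps3a1 (977 bases) also hold sequence outside that part. It covers coding bases 609 to 668 of Rps3a1 (chr3:86137940-86142702, minus strand, GRCm38) and bases 609 to 668 of Rps3a2 (chr14:88123017-88123808, minus strand), from the GENCODE M21 transcripts, with the 2 differing bases in capitals.
Rps3a1: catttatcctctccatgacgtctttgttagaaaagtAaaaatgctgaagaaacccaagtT
Rps3a2: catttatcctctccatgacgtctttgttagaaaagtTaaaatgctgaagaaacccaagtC
Identity to the parent gene was 98.9% for Rps3a3 (Rps3a1), 98.7% for Rpl6l (Rpl6) and 98.5% for Rps12l1 (Rps12). By contrast, Rps4l (79.6% identical to Rps4x), Rps27l (75.3% to Rps27), Rpl3l (74.3% to Rpl3), Rpl22l1 (69.4% to Rpl22) and Rpl7l1 (57.4% to Rpl7) shared no 50-base window with their parents.

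Outside the members, the same held for rows with a -ps ending. Rps6, the small-subunit protein phosphorylated downstream of mTOR, and the row Rps6-ps4 matched at 747 of 747 aligned bases, so that every 50-base window of the copy occurred in the Rps6 transcript. The first 60 coding bases of Rps6 (chr4:86854660-86857412, minus strand) and the first 60 bases of Rps6-ps4 (chr2:75191073-75191822, minus strand) are shown for this identity.
Rps6: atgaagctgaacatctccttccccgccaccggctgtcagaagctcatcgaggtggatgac
Rps6-ps4: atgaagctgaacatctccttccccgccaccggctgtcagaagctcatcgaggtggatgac
Rpl3, a core protein of the peptide-bond-forming center, and Rpl3-ps1 matched at 1207 of 1209 aligned bases. Coding bases 1 to 60 of Rpl3 (chr15:80077791-80091868, minus strand) and bases 2 to 61 of Rpl3-ps1 (chrX:13202571-13203780, plus strand) hold 1 of the differing bases, in capitals.
Rpl3: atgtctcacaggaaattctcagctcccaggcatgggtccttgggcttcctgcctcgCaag
Rpl3-ps1: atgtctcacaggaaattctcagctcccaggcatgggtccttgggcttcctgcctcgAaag

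The start sites of the members were searched for the pyrimidine runs for which this family is known. RefSeq start-site windows (GRCm38.p6, 250 bases before to 50 after the start, first listed start of a gene) existed for 61 of the 86 members. Within 10 bases on either side of the annotated start, on the coding strand, a C followed by 4 pyrimidines occurred in 34 of 61 members (55.7%) and in 30.8% of 27025 genes in the table. The letters CCGGAAGT, on either strand of the 300 bases, occurred in 12 of 61 members (19.7%) and in 4.00% of the genes. The letters AAGATGGC, on either strand, occurred in 5 of 61 members (8.20%) and in 2.88% of the genes. These 3 motifs were searched for apart from each other, and the shares were not tested. Windows of 15 bases on each side of the start boundary are printed for the 2 members with the highest mean CPM and for 6 with lower CPM, with the longest pyrimidine run of 5 or more in capitals: Rpl4 (chr9:64173372-64173401, plus strand), Rpl13 (chr8:123102335-123102364, plus strand), Rps6 (chr4:86857353-86857382, minus strand), Rpl10a (chr17:28328456-28328485, plus strand), Rps19 (chr7:24884577-24884606, plus strand), Rpl37 (chr15:5116598-5116627, plus strand), Rpl38 (chr11:114668565-114668594, plus strand) and Rps28 (chr17:33824548-33824577, minus strand).
Rpl4: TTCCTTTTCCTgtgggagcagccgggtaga
Rpl13: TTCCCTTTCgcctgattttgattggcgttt
Rps6: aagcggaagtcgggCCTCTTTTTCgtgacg
Rpl10a: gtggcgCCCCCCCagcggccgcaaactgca
Rps19: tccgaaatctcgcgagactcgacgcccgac
Rpl37: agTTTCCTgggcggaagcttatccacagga
Rpl38: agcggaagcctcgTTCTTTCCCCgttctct
Rps28: ggtaccgcgtgcggtctcgcgagagcgaaa
Runs of 9 to 11 pyrimidines stood in the windows of Rpl4, Rpl13, Rps6 and Rpl38, a run of 7 in that of Rpl10a and of 6 in that of Rpl37, and none of 5 or more in those of Rps19 and Rps28. Mean levels were 296.6 CPM for Rpl4, 253 for Rpl13, 13.1 for Rpl10a, 7.63 for Rps19, 2.95 for Rps6, 1.09 for Rpl37, 0.123 for Rps28 and 0.102 for Rpl38. Long and short runs both stood beside low levels.

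The members together took a small share of each library, 0.158 to 0.297% of all counts. Rpl4 (13.4% of the members' mean total), Rpl13 (11.5%) and Rps3a2 (6.65%) led, and the 3 highest members of each library made up 28.6 to 41.2% of the members' sum. Between 41 and 71 of the 86 members reached 1 CPM in a library, with 41, 50 and 47 in niche normal and 66, 58 and 71 in general metastatic. In all 12 libraries, 25 members reached 1 CPM. Of the 86, 74 passed the filter on low counts (42 large-subunit, 32 small-subunit). The other 12 were Rps27, Rps29, Rpl35, Rps21, Rpl23a, Rpl17, Rpl36a, Rpl24, Rpl3l, Rps28, Rpl36 and Rpl38, with means from 0.102 CPM (Rpl38) to 1.56 CPM (Rps27).

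**Figure D1:**
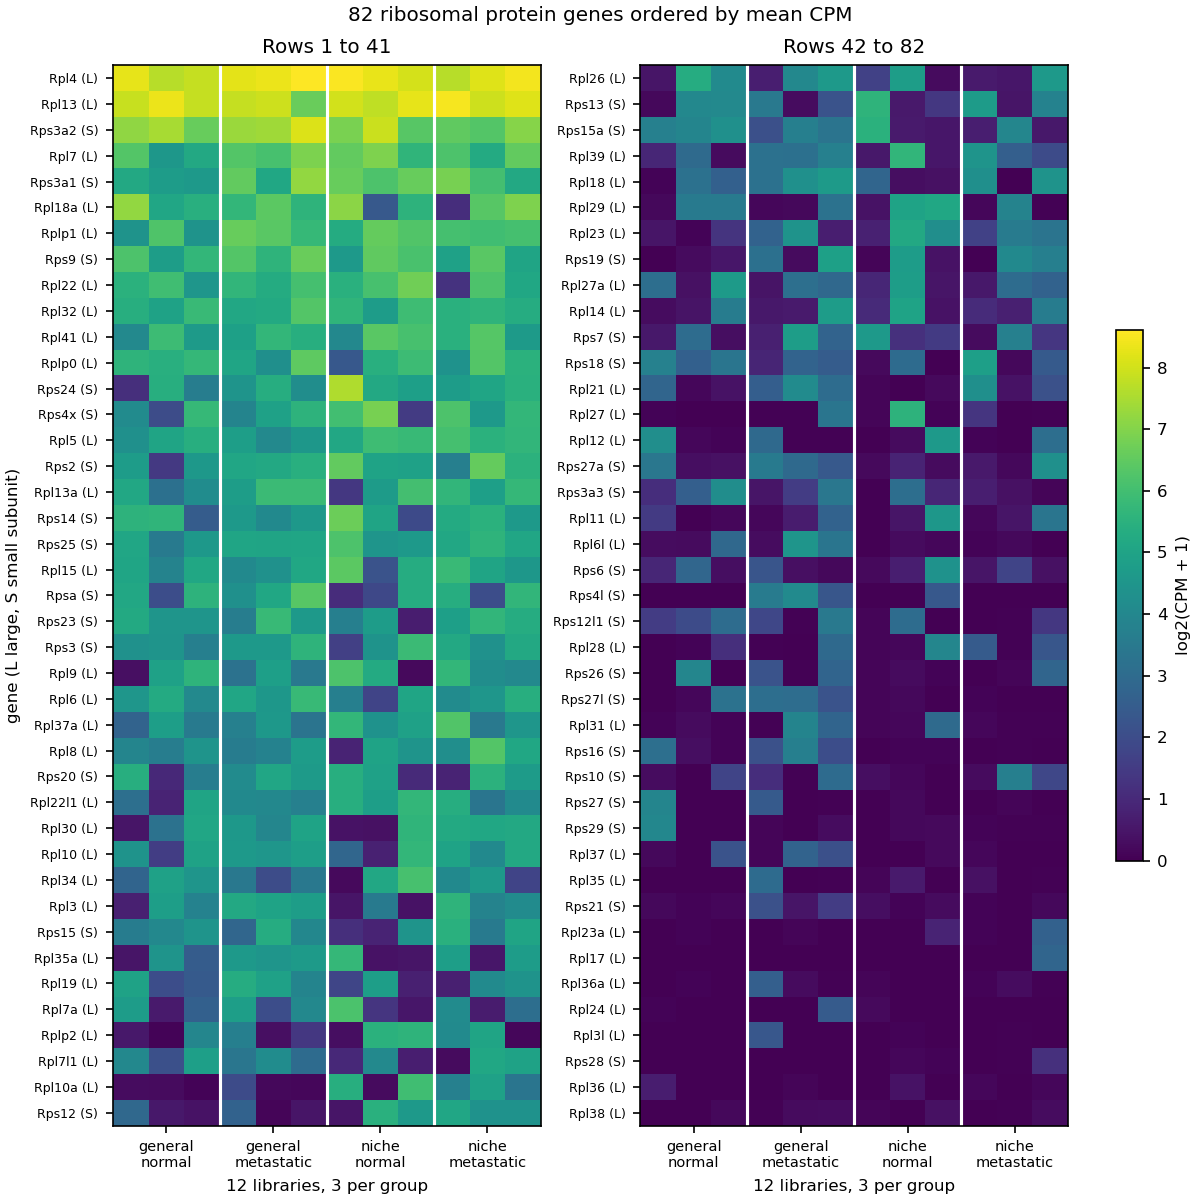
Level of 82 of the 86 ribosomal protein genes (rows, L large and S small subunit, ordered by mean CPM) in each of the 12 libraries (columns, 3 per group between white lines), as log2(CPM + 1). Rpl4 and Rpl13 are high throughout, and many middle rows switch between dark and bright inside a group.

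Many members were counted in one library of a group and nearly missing from another. A member counted as switching in a group when one library was under 1 CPM and another at 10 CPM or more. This happened in 77 of 344 combinations of a member and a group (22.4%). Among the 74 members that passed the filter the share was 25.3%, beside 23.5% over all 12882 tested genes and 39.1% over the 5029 tested genes whose mean CPM lay in the members' middle range of 6.11 to 33.4 CPM. The median coefficient of variation within a group was 85.0% for those 74 members and 70.5% for all tested genes. For the 5029 tested genes in the members' middle range it was 86.5%. Members and other genes both switched often in these libraries.

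Levels of different genes were compared per kilobase, and the order depended on which length was used. Per kilobase of merged exons, which adds up all annotated forms of a gene, Rps3a2 stood highest at 185 CPM per kb, followed by Rpl4 at 148 and Rplp1 at 125. Per kilobase of the transcript with the longest coding sequence (the exons for pseudogenes), Rpl13 led at 325 CPM per kb, before Rpl4 at 193 and Rps3a2 at 185. The 3 lowest that passed the filter were Rpl37 at 0.645, Rps10 at 0.937 and Rpl11 at 1.25 CPM per kb of merged exons, and Rpl37 at 1.30, Rps16 at 2.02 and Rps10 at 3.04 CPM per kb of transcript. By coding length (the longest annotated coding sequence, which may not be the main form), the 28 shortest members (138 to 405 bases) had a median of 10.2 CPM, the 26 in the middle 6.68 CPM and the 27 longest (588 to 1257 bases) 26.5 CPM. These medians include members that did not pass the filter on low counts. The medians of other genes in the same length ranges, taken only over genes that passed it, were 11.2, 17.5 and 18.7 CPM. The medians of members and of other genes are therefore not on a like basis. Per coding kilobase the medians of the short, middle and long members were 34.2, 13.5 and 34.4 CPM, so the short and long members stood level on that scale. The 30 members that hold a snoRNA had a median of 16.6 CPM and the 51 other protein-coding members 9.22 CPM. Per coding kilobase these medians were 31.2 and 18.2 CPM. Counts from a snoRNA and from its host could not be separated here because the counting program and its settings are not given in the sources used here.

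Rplp0, Rplp1 and Rplp2 form the acidic stalk of the large subunit, which recruits elongation factors. Rplp0 stood at 47.7, 41.7 and 52.4 CPM in general normal, 32.6, 18.7 and 87.9 in general metastatic, 4.12, 42.4 and 59.3 in niche normal, and 19.8, 78.0 and 43.8 in niche metastatic. All 4 groups overlapped. Rplp1 was at 20.2, 74.96 and 20.5 CPM in general normal, 96.6, 83.3 and 53.4 in general metastatic, 38.0, 94.1 and 76.4 in niche normal, and 66.2, 61.3 and 65.8 in niche metastatic, so the groups overlapped here as well. Rplp2 ran from 0.0591 to 14.3 CPM within general normal and from 0.242 to 47.1 CPM within niche normal. None of the 3 stalk genes passed the test in any comparison (edgeR adjusted p at least 0.492).

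Rpl5 and Rpl11 bind the 5S ribosomal RNA and, when free, the p53 regulator Mdm2. Rpl5 stood at 19.1, 31.9 and 41.3 CPM in general normal, 27.6, 15.5 and 22.3 in general metastatic, 34.8, 59.4 and 55.3 in niche normal, and 66.2, 43.9 and 49.2 in niche metastatic. Its niche metastatic libraries lay above those of general metastatic, with a log2 difference of 1.28 ± 0.75 (SE) that did not pass (edgeR adjusted p = 0.737). Rpl11, its partner, was counted far less, at 0 to 1.78 CPM in general normal, 0.109 to 5.57 in general metastatic, 0 to 22.4 in niche normal and 0.101 to 9.20 in niche metastatic. Per kilobase of merged exons the partners stood at 9.92 CPM for Rpl5 and 1.25 CPM for Rpl11, and per kilobase of transcript at 19.0 and 4.06 CPM.

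On the small subunit, Rpsa, which also serves as a laminin receptor, ranged from 1.13 to 81.0 CPM with all groups overlapping. Rps19, the gene most often mutated in Diamond-Blackfan anaemia, stood at 0, 0.177 and 0.448 CPM in general normal. It was at 8.07, 0.180 and 28.6 CPM in general metastatic, 0.0808, 25.7 and 0.350 in niche normal, and 0, 15.8 and 12.1 in niche metastatic. On this row general normal was low in all 3 libraries, yet each other group held a library as low, and no comparison of Rps19 passed (edgeR adjusted p at least 0.322). With its 2 -ps rows added, Rps19 stood at 5.47, 5.199 and 8.81 CPM in general normal and at 15.9 CPM or more in each of the 9 other libraries. The log2 differences from general normal were then 2.54 ± 0.96 (SE) in niche normal and 2.61 ± 0.96 (SE) in general metastatic, and neither passed (edgeR adjusted p = 0.202 and 0.939). Rps6 ranged from 0.146 to 20.0 CPM and reached 10 CPM only in niche normal C.

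Summed over the 86 members, the level was lowest in general normal. The sums were 1895, 1723 and 1719.5 CPM in general normal, 2033, 2199 and 2661 in general metastatic, 2509.9, 2520.1 and 2415 in niche normal, and 2181, 2264 and 2359 in niche metastatic. The means were 1779 ± 100.4, 2298 ± 326, 2482 ± 58.0 and 2268 ± 89.2 CPM (SD, n = 3 each). Every general normal library lay under every other library. Niche normal exceeded general normal 1.39-fold and general metastatic exceeded general normal 1.29-fold, both without overlap. Niche metastatic was at 0.914 times niche normal without overlap, and at 0.987 times general metastatic with overlap. A sum over members gets no test.

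Both subunits showed this order in part. Large-subunit sums averaged 1184 ± 23.2 CPM in general normal, 1419 ± 99.3 in general metastatic, 1595 ± 120.3 in niche normal and 1511 ± 81.5 in niche metastatic (SD, n = 3). Small-subunit sums averaged 595 ± 77.7, 879 ± 232, 887 ± 175 and 757 ± 34.1 CPM (SD, n = 3) in the same order. For each subunit alone the niche metastatic and niche normal libraries overlapped. The ratio of large to small sums averaged 2.01 ± 0.209, 1.67 ± 0.294, 1.87 ± 0.558 and 2.00 ± 0.135 (SD, n = 3), and ran from 1.33 in general metastatic replicate 3 to 2.51 in niche normal C.

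**Figure D2:**
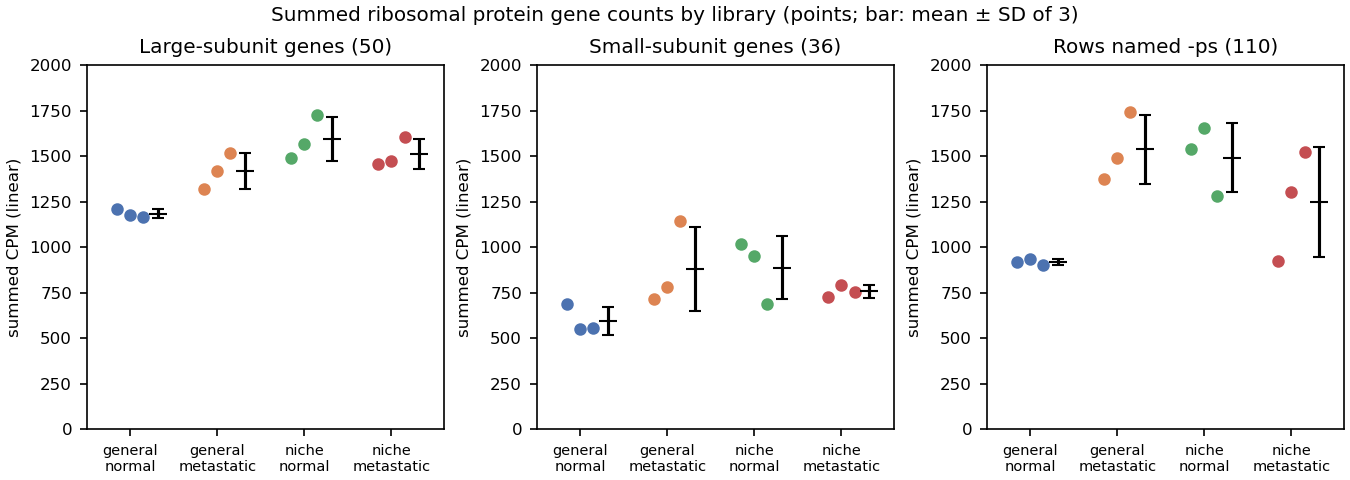
Summed CPM (linear axis from 0) of the 50 large-subunit genes, the 36 small-subunit genes and the 110 rows named as their pseudogenes, with 1 point per library and the mean ± SD of 3 beside each group. General normal has the lowest mean in each panel. Its libraries lie below all others for both subunits, and for the -ps rows they overlap with niche metastatic (899 to 934 against 923 to 1521 CPM).

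The direction of 2 of these ratios depended on scaling. With library size alone in place of trimmed mean of M values (TMM) scaling, the log2 ratio of niche metastatic to general metastatic was 0.22 instead of -0.02, and that of niche metastatic to niche normal 0.12 instead of -0.13. That scaling moved the median of all tested genes by 0.25 and 0.24 in those comparisons. General metastatic replicate 3 held the highest sum, and without it the log2 ratio of general metastatic to general normal was 0.24 instead of 0.37. Marker levels moved with the groups as well. Erythroid markers (10 genes) summed to 28.5 to 130.4 CPM in the general macrophages and 649 to 1729.5 CPM in the niche macrophages, and B and plasma cell markers (10 genes) to 96.8 to 264 and 1091 to 3909 CPM, with no erythroid or B and plasma cell marker at 0 in a whole group. Monocyte markers (6 genes) summed to 5838 to 6533 CPM in the general and 1322 to 1952 CPM in the niche macrophages, and the mitochondrial share of counts was 0.0846 to 0.400% and 1.24 to 1.80%. RNA quality or stress markers (6 genes, such as Fos and Jun) summed to 535 to 670.3 CPM in general normal, 641 to 1144 in general metastatic, 337 to 370.1 in niche normal and 552 to 943 in niche metastatic. Niche normal thus lay below both general normal and niche metastatic for these markers. The part of these markers and of the mitochondrial share in the sums was not tested.

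Individual members were compared with edgeR's quasi-likelihood test over all 12882 tested genes. No member passed in any of the 5 comparisons. In niche normal against general normal, 0 of 74 members were called, beside 2.47% of all tested genes. The counts were 0 of 74 in niche metastatic against general metastatic (0.831% of all tested genes), in general metastatic against general normal (0.0155%), in niche metastatic against niche normal (0.00776%), and in the interaction of population and marrow state, which compares the effect of metastasis in niche and in general macrophages (0%). At an unadjusted p under 0.05, 7, 8, 3, 3 and 5 of the 74 members stood in the 5 comparisons, beside 19%, 8.6%, 5.12%, 12.7% and 7.89% of all tested genes. DESeq2, run as an alternative, called 3, 1, 0, 1 and 3 of its 68 members with an adjusted p, beside 15.4%, 4.05%, 1.19%, 8.06% and 3.46% of all genes. limma-voom with quality weights called 0, 1, 1, 0 and 0 of 74 members, beside 1.44%, 1.38%, 0.179%, 0.0854% and 0% of all tested genes. A missed threshold does not show that members were equal, since the spread within groups was wide.

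In 2 comparisons the members' median fold change stood above that of all tested genes. For the 74 tested members the median log2 fold change was 0.56 in niche normal against general normal, where the median of all tested genes was 0.19, and 48 of 74 (64.9%) were above 0 beside 56.0% of all tested genes. In general metastatic against general normal it was 0.53, beside -0.01 for all, with 53 of 74 (71.6%) above 0 beside 49.4%. It was -0.14 beside 0.04 in niche metastatic against general metastatic, with 31 of 74 (41.9%) above 0 beside 51.8%. With library size only these medians were 0.10 beside 0.29, and 39 of 74 members were above 0. In niche metastatic against niche normal the median was -0.29 beside -0.17, with 29 (39.2%) above 0 beside 43.5%. With library size only these medians were -0.05 beside 0.06, and 35 of 74 members were above 0. Members at or under 3 counts in all libraries of one group were then set to that bound, and those under it in both groups were left out. Only the last comparison had members to leave out (3). Its median became -0.22, and the other medians kept their values. In the difference of metastasis effects between niche and general macrophages the members' median was -0.65, beside -0.13 for all tested genes. There, 28 of 74 (37.8%) were above 0 beside 46.5%. With library size only the medians were -0.45 beside 0.10. The comparisons share groups: general normal, for example, is the baseline of the first 2 named here.

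**Figure D3:**
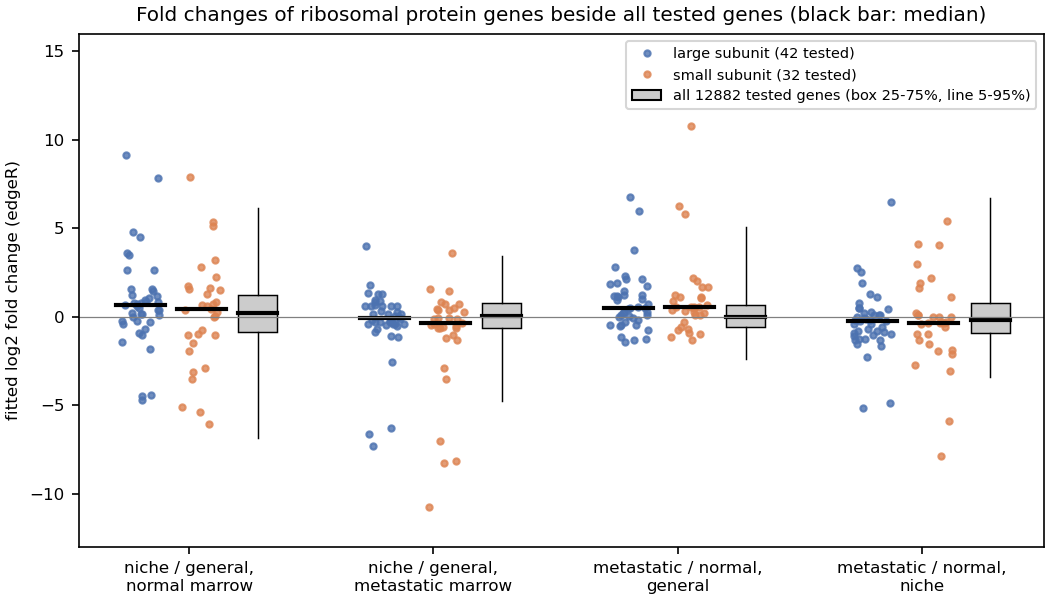
Fitted log2 fold changes of the tested large-subunit (blue) and small-subunit (orange) genes in 4 comparisons, 1 point per gene with the median as a black bar, beside all 12882 tested genes (box 25 to 75%, line 5 to 95%). Members' medians lie above those of all genes in 2 comparisons (0.56 against 0.19 and 0.53 against -0.01), and the far points are members near 0 counts in one group.

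The medians were also taken for each subunit. In niche normal against general normal the median was 0.66 for the large and 0.42 for the small subunit. In general metastatic against general normal it was 0.50 and 0.54. In the other comparisons the medians were -0.06 and -0.38 (niche against general, metastatic marrow), and -0.23 and -0.32 (metastatic against normal marrow, niche). The summed CPM of the large and small subunits stood at 1.20 and 1.48 times general normal in general metastatic. In niche metastatic they stood at 1.06 and 0.862 times general metastatic, with overlap for each subunit. The difference between the subunits was not tested.

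Some members lay in separate ranges in the groups compared. In niche normal against general normal, 3 tested members, Rps2 and Rps3a1 among them, lay wholly higher and 1 wholly lower, beside 18.8% of all tested genes without overlap. In niche metastatic against general metastatic, 6 were higher (Rpl10a, Rpl30, Rpl5, Rps12, Rps14 and Rps25) and 6 lower (Rpl6l, Rps16, Rps27l, Rps3a2 and Rps4l among them), beside 17.2%. In general metastatic against general normal, 8 were higher (Rpl18, Rpl35a, Rpl39, Rps2, Rps3 and Rps4l among them) and 1 lower (Rps15a), beside 12.9%. In niche metastatic against niche normal, 4 were higher (Rpl21, Rpl3 and Rps23 among them) and 1 lower, beside 12.7%. Of the 74 tested members, 5.41%, 16.2%, 12.2% and 6.76% lay without overlap in the 4 comparisons in this order, near the background in the second and the third.

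**Figure D4:**
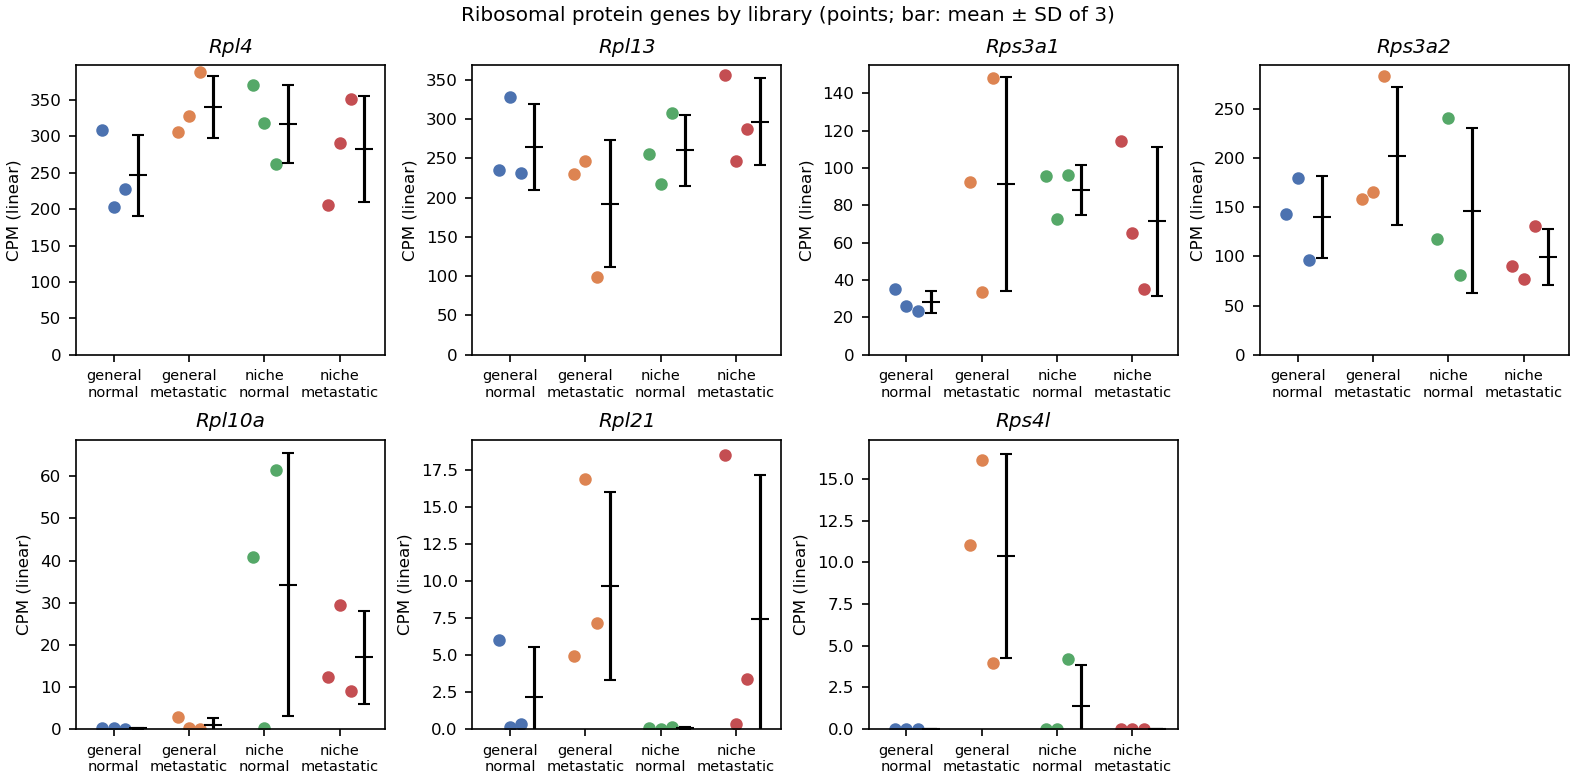
CPM (linear axes from 0) of 7 ribosomal protein genes in each library, with the mean ± SD of 3 beside each group (error bars that would pass below 0 end at the axis). Rpl4 and Rpl13 overlap in all groups, Rps3a1 is lowest in general normal, and Rpl10a, Rpl21 and Rps4l are near 0 in whole groups.

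The 2 members with the highest mean CPM, Rpl4 and Rpl13, overlapped between groups. Rpl4, a large-subunit protein that lines the exit tunnel, stood at 309, 203 and 227 CPM in general normal, 306, 328 and 388 in general metastatic, 370, 319 and 262 in niche normal, and 206, 290.3 and 351 in niche metastatic. Rpl13 stood at 235, 328 and 232 CPM in general normal, 230.4, 247 and 99.5 in general metastatic, 256, 217 and 308 in niche normal, and 356, 246 and 287 in niche metastatic. The largest log2 difference between 2 groups for these 2 genes, 0.62 ± 0.33 (SE) for Rpl13 between niche and general metastatic, did not pass (edgeR adjusted p = 0.638).

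Rps3a1 encodes a small-subunit protein near the messenger RNA exit site. It stood at 35.2, 26.2 and 23.6 CPM in general normal, 92.7, 33.8 and 148 in general metastatic, 96.0, 72.8 and 96.3 in niche normal, and 114, 65.2 and 35.3 in niche metastatic. All niche normal libraries lay above all general normal libraries, with a log2 difference of 1.64 ± 0.59 (SE) that did not pass (edgeR adjusted p = 0.185, DESeq2 adjusted p = 0.0488). General metastatic against general normal gave 1.69 ± 0.59 (SE), with replicate 2 of general metastatic inside the range of general normal (edgeR adjusted p = 0.944). Its near-identical copy Rps3a2 took more counts than Rps3a1 in every group mean, at 140 ± 41.6, 202 ± 70.3, 146 ± 83.7 and 99.3 ± 28.2 CPM (SD, n = 3) in the order of groups above. Rps3a2 was lower in all niche metastatic than in all general metastatic libraries (log2 difference -1.02 ± 0.42 (SE), edgeR adjusted p = 0.523).

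Rpl10a had the smallest p of all members between niche and general normal. It stood at 0.205, 0.177 and 0.0497 CPM in general normal, each at most 3 counts, and at 40.9, 0.198 and 61.6 in niche normal, where library B was as low as general normal. It was at 2.91, 0.135 and 0.109 CPM in general metastatic and 12.4, 29.6 and 9.09 in niche metastatic, which did not overlap. The fitted log2 difference in normal marrow, 7.85 ± 2.40 (SE), did not pass in edgeR (adjusted p = 0.103), passed in DESeq2 (adjusted p = 2.68e-05), and passed in edgeR without niche normal B (adjusted p = 0.0341, beside 2.83% of all genes tested there). Rpl10a has 2 rows named as its pseudogenes, and with their counts added the difference was 0.63 ± 0.53 (SE, edgeR adjusted p = 0.585). In metastatic marrow the added rows made the groups overlap, at 59.0, 94.2 and 69.5 CPM in general metastatic and 42.9, 82.6 and 61.7 in niche metastatic, and turned the log2 difference from 4.01 to -0.25 (edgeR adjusted p = 1). On its own row that difference was 7.05 without general metastatic replicate 1. Every 50-base window of Rpl10a-ps1, 1 of these rows, occurred in the Rpl10a transcript.

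Rpl27 and Rps16 were the members with the highest and lowest fitted difference in normal marrow. Rpl27 was at 0.0684 CPM or less in general normal and at 0.0808, 46.3 and 0.05 CPM in niche normal, so library B alone set its mean (edgeR adjusted p = 0.238). With its -ps row added, general normal held 6.26 to 14.9 CPM of Rpl27 and niche normal 0.566, 46.7 and 0.250. Rps16 was at 7.80, 0.236 and 0.0497 CPM in general normal, 3.42, 12.2 and 3.13 in general metastatic, and at most 0.05 CPM in every niche library. On this row the niche libraries were all near 0, and neither population comparison passed (edgeR adjusted p = 0.262 in normal and 0.486 in metastatic marrow). In metastatic marrow this separation depended on the row counted. All 392 windows of 50 bases of Rps16-ps2 occurred in the Rps16 transcript, and with that row added Rps16 stood at 0.101, 21.1 and 12.6 CPM in niche metastatic and at 4.83, 12.3 and 12.3 in general metastatic. The log2 difference in metastatic marrow then turned from -8.25 to 0.20 with overlap (edgeR adjusted p = 1). In normal marrow the row added to the separation, with 7.87, 13.6 and 9.15 CPM in general normal and 0, 0.148 and 0.250 in niche normal, and the log2 difference of -6.17 ± 2.48 (SE) did not pass (edgeR adjusted p = 0.223).

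Rps4l, a transcribed processed pseudogene inside Tmtc1 (chr6:148354656-148355598, plus strand, GRCm38) and related to Rps4x, was listed at 0 in all general normal and all niche metastatic libraries. It stood at 11.05, 16.2 and 3.97 CPM in general metastatic and at 0, 0 and 4.20 in niche normal. Against a bound of 3 counts per library, general metastatic was at least 58.6-fold higher than general normal and at least 79.6-fold higher than niche metastatic. Neither comparison passed in edgeR (adjusted p = 0.944 and 0.457), whereas limma-voom with quality weights called both (adjusted p = 0.0473 and 0.0247, the calls counted above beside 0.179% and 1.38% of all tested genes). Outside general metastatic and niche normal C the row was at 0, so it passed the filter on low counts only through those libraries. The limma-voom calls therefore give no separate support for a difference in Rps4l. Rps4x, its parent, ranged from 1.800 to 115 CPM with all groups overlapping.

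Rpl21 and Rpl31, both of the large subunit, were near 0 in one group or more. Rpl21 was at 0.0808, 0 and 0.150 CPM in niche normal and at 18.5, 0.348 and 3.39 in niche metastatic, without overlap (edgeR adjusted p = 0.381, DESeq2 adjusted p = 0.0224). With the -ps rows of Rpl21 added the direction turned, again without overlap, at 44.9, 21.8 and 36.3 CPM in niche normal and 18.6, 0.914 and 3.497 in niche metastatic (log2 difference -2.16 ± 1.71 (SE) instead of 6.49, edgeR adjusted p = 0.668). Without niche metastatic replicate 1, the difference on its own row was 4.49. On its own row, general normal held 6.02, 0.118 and 0.348 CPM of Rpl21 and general metastatic 4.94, 16.9 and 7.14. Rpl31 was at most 0.177 CPM in general normal and 0.101 in niche metastatic, at 0.0363, 13.9 and 5.90 in general metastatic, and at 0.0808, 0.0990 and 6.80 in niche normal. Its difference of metastasis effects did not pass in edgeR (adjusted p = 0.505) and passed in DESeq2 (adjusted p = 0.0421). With its -ps rows added, Rpl31 stood at 35.8, 0.174 and 19.6 CPM in niche metastatic, and that difference turned from -11.1 to 0.40 ± 3.06 (SE, edgeR adjusted p = 1.000). On its own row the difference was -6.54 without niche normal C. Rps26 and Rpl12 marked other extremes of the fits: Rps26 reached 14.3 CPM in general normal replicate 2 and 0 in the other libraries of that group, and Rpl12 18.2 CPM in replicate 1 and at most 0.118 in the others.

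The paralogs with a distinct sequence did not follow one pattern. Rpl22l1, whose product can replace Rpl22, stood at 7.73, 0.827 and 31.5 CPM in general normal, 15.8, 15.2 and 12.5 in general metastatic, 41.1, 27.4 and 51.4 in niche normal, and 40.2, 9.05 and 16.5 in niche metastatic. Rpl22 itself ranged from 1.41 CPM in niche metastatic replicate 1 to 105 CPM in niche normal C. Rps27l, a p53 target in other settings, was at 7.59, 7.38 and 3.64 CPM in general metastatic and at 0, 0.118 and 8.46 in general normal. In the niche macrophages Rps27l was at most 0.148 CPM in every library, and the comparison in metastatic marrow, without overlap, did not pass (edgeR adjusted p = 0.523). Rpl7l1 ranged from 0.201 to 34.3 CPM, and Rpl3l, a form known from striated muscle, reached 4.11 CPM in general metastatic replicate 1 and at most 0.0495 CPM elsewhere.

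Rows named as pseudogenes of members took a large share of ribosomal protein counts. The table held 110 such rows for 49 of the members, and their sum exceeded the member's own mean in 27 of the 49. Of these rows, Rpl10-ps3, Rpl36a-ps1, Rpl9-ps6 and Rps12-ps3 were annotated as protein coding in spite of their names. Sums of the 110 rows were 899 to 934 CPM in general normal, 1374 to 1746 in general metastatic, 1282 to 1654 in niche normal, and 923 to 1521 in niche metastatic. Of 95 rows that could be aligned to a parent, the median identity was 99.0%, and in 63 of them at least 50% of the 50-base windows occurred in the parent transcript, so counts on gene and pseudogene rows are uncertain in their division.

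For Rps6 and Rpl3 most counts stood on the pseudogene row. Rps6-ps4 stood above Rps6 in all 12 libraries, with means of 38.9 ± 10.4 CPM in general normal, 61.9 ± 45.9 in general metastatic, 71.6 ± 11.6 in niche normal and 35.1 ± 6.71 in niche metastatic (SD, n = 3). The coefficient of variation of Rps6 over the 12 libraries was 193% alone and 49.7% with that row added. Rpl3-ps1 likewise stood above Rpl3 in all 12 libraries, with means of 115 ± 6.51, 181 ± 15.6, 167 ± 81.7 and 155 ± 23.6 CPM (SD, n = 3), and adding it took the coefficient of variation of Rpl3 from 81.0% to 29.5%. For 44 of the 49 members the variation was lower with the rows added, and the median fell from 116% to 72.3%. Adding independent values also lowers relative variation, and that part was not tested.

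**Figure D5:**
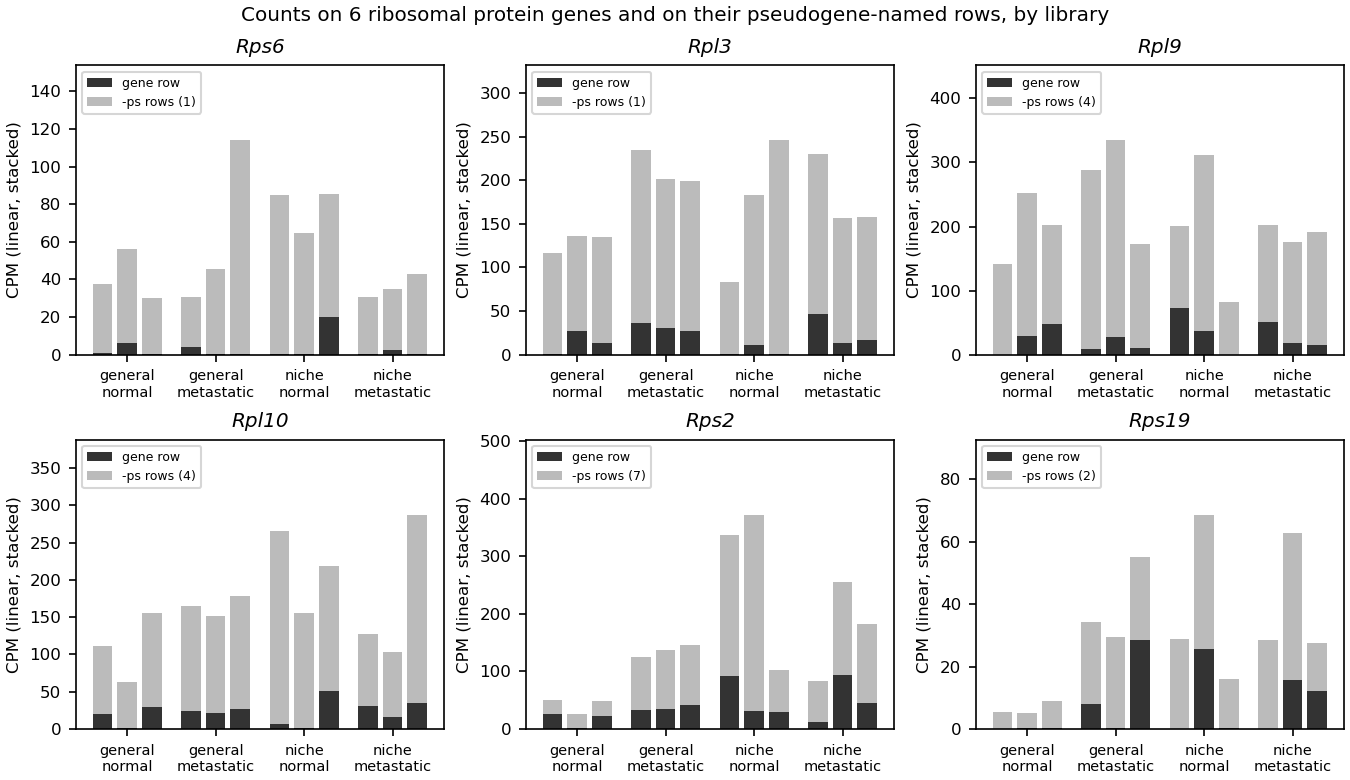
CPM of 6 ribosomal protein genes (dark) and of the rows named as their pseudogenes (light, number of rows in brackets), stacked, by library with 3 bars per group. The rows named -ps stand above the gene row in all 12 libraries for Rps6, Rpl3, Rpl9 and Rpl10 and in 11 for Rps2 and Rps19. Those of Rpl9 and Rpl10 include Rpl9-ps6 and Rpl10-ps3, which are annotated as protein coding.

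With these rows added to their genes, a choice made after the data were seen, 79 members passed the filter and 39 reached 1 CPM in all 12 libraries. Combined sums kept general normal lowest, with 1.47 times as much in niche normal and 1.42 times as much in general metastatic, without overlap. Combined sums in niche metastatic were 0.885 times those of niche normal and 0.917 times those of general metastatic, both with overlap. The only member called by edgeR was then Rps2, a small-subunit protein at the entry of the messenger RNA channel, in niche normal against general normal (log2 difference 2.69 ± 0.49 (SE), adjusted p = 0.00380). This was 1 of 79 members, beside 2.48% of all genes tested with the rows added. In the other comparisons 0 of 79 were called, beside 0.842%, 0.0156%, 0.0078% and 0%. Rps2 alone stood at 25.9, 1.71 and 22.8 CPM in general normal and at 91.2, 30.4 and 29.1 in niche normal, without overlap (log2 difference 1.58 ± 0.98 (SE), adjusted p = 0.392). Its row Rps2-ps10 stood at 13.4, 24.2 and 14.3 CPM in general normal, 68.9, 59.4 and 95.4 in general metastatic, 245, 192 and 41.3 in niche normal, and 39.1, 141 and 135 in niche metastatic. It was higher in niche normal than in general normal (log2 difference 3.21 ± 0.64 (SE), edgeR adjusted p = 0.00808), the 1 row called among the 66 tested pseudogene rows.

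Among ribosomal genes outside the naming rule, Rack1, a scaffold on the small-subunit head, averaged 256 ± 72.6, 285 ± 42.9, 232 ± 61.5 and 266 ± 43.9 CPM (SD, n = 3) in general normal, general metastatic, niche normal and niche metastatic, with no comparison passing. Fau stood at 0.0900 to 31.7 CPM in the first 3 groups and at most 0.201 CPM in niche metastatic. Rpl36al was at most 20.0 CPM in any library, and neither Fau nor Rpl36al passed in any comparison (edgeR).

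Other genes of the pathway gave 2 calls, both in niche normal against general normal (2.47% of all tested genes called). Eef1a1, which delivers aminoacyl-tRNA to the ribosome, stood at 1463, 1474 and 1287 CPM in general normal and 2719.7, 3621 and 3327 in niche normal, a log2 difference of 1.19 ± 0.25 (SE, edgeR adjusted p = 0.0103), and was the 1 of 15 translation factors called. Gnl3 (nucleostemin), a nucleolar GTPase, stood at 12.6, 13.3 and 9.55 CPM and at 79.0, 141 and 111 CPM, a log2 difference of 3.22 ± 0.70 (SE, edgeR adjusted p = 0.0149), and was the 1 of 37 tested ribosome biogenesis genes called. Neither passed in another comparison. The biogenesis list had a median log2 fold change of 1.02 in that comparison, with 28 of 37 (75.7%) above 0, beside 0.19 and 56.0% for all tested genes. The medians there were 0.63 for the RNA polymerase I genes, 0.24 for the regulators, 0.13 for the translation factors, -0.12 for the mitochondrial ribosomal protein genes and -1.001 for the snoRNA host genes. Of 8 RNA polymerase I genes, 18 regulators, 5 snoRNA host genes and 62 mitochondrial ribosomal protein genes, none was called in any comparison. Mitochondrial ribosomal protein sums averaged 581 ± 41.8, 692 ± 54.9, 699 ± 137 and 643 ± 98.8 CPM (SD, n = 3) in the 4 groups.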

How the data were processed

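The authors deposited 1 table of expected counts (a unit read from its values, 73.9% of them whole), rounded here before testing. Per the submitters' processing notes, STAR 2.7.3a, Partek, DESeq2 1.40.2, R 4.3.1 and the build mm10 were used. The counting program, annotation, strandedness and treatment of reads that map to several places are not given in the sources used here. Genes passing edgeR's filterByExpr (12882) were TMM-scaled and modelled as 4 group means over 12 libraries (edgeR 4.0.16 under R 4.3.3, quasi-likelihood). A call is a Benjamini-Hochberg adjusted p under 0.05, taken over every tested gene. Members, gene lists and the naming rule were chosen with earlier results of these data known. Named were genes of set roles, l-ending members with their parents, the extremes per kilobase, the 3 smallest p and the extremes of fold in each comparison, ribosomal genes outside the rule and called pathway genes. Genes of the no-overlap lists, Rpl4, Rpl13 and pseudogene rows were named after their values were seen. Alternatives were RLE scaling, library size only, removal of small non-coding RNA, scaling to the members' total, no filter, DESeq2 1.42.0, limma-voom (limma 3.58.1), only 6 libraries, a replicate block, and leaving out each library. No 2 libraries of a group agreed within sampling noise (chi-square per degree of freedom 115 to 295). Some genes that the rule names are not reported here. The test was also run on simulated counts, where recovery was required only at a smaller spread than these data have. This does not show how many changes the test finds at the spread of these data. Bounds cover counting error only.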

Additional observations from a re-analysis of the deposited data

Results flagged for a closer look

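The sum of all members lay in opposite directions in metastatic against normal marrow in the 2 populations. The log2 ratio of metastatic to normal marrow was 0.37 in general and -0.13 in niche macrophages, each without overlap between groups. The difference between these 2 ratios was not tested. The median log2 fold change of all tested genes was -0.01 in general and -0.17 in niche macrophages. With library size only, the ratio in niche macrophages was 0.12, and the median of all tested genes moved by 0.24. With the -ps rows added to their genes, niche metastatic stood at 0.885 times niche normal, with overlap.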

How the results depend on the processing

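No member was called in any comparison with RLE scaling, library size only, without small non-coding RNA, with scaling to the members' total, without the filter or with only the 6 libraries compared. Of all genes these settings called 1.7 to 3.21% in normal marrow, 0.644 to 0.921% in metastatic marrow, 0 to 0.0466% in general macrophages, 0 to 0.0164% in niche macrophages and 0% in the difference of effects, which was not fitted with 6 libraries. The replicate block was possible for the 2 comparisons whose groups share numbers 1 to 3. It also gave 0 calls of members, beside 0.948% and 0.0243% of all genes. Deviations of same-numbered libraries correlated at -0.00355 to 0.0329, and those of differently numbered ones at -0.0356 to 0.0241. With 3 libraries per group, these values cannot show whether same-numbered libraries came from the same mouse. DESeq2 called 3 members in niche against general normal (Rpl10a, Rpl23, Rps3a1), 1 in metastatic marrow, 1 in niche metastatic against normal (Rpl21) and 3 in the difference of effects (Rpl31 and Rps4l among them). limma-voom called 1 (Rps4l) in metastatic marrow and 1 (Rps4l) in general macrophages, beside 1.38% and 0.179% of all tested genes. Leaving out 1 library gave 0 to 1 calls in normal marrow (Rpl10a, without niche normal B) and 0 elsewhere. With pseudogene rows added, 1 member (Rps2) was called in normal marrow, beside 2.48% of all tested genes. The cause of these changes was not tested. Log2 ratios of summed CPM ran from 0.46 to 0.53 (niche against general, normal), -0.10 to 0.10 (metastatic), 0.24 to 0.45 (general) and -0.17 to -0.11 (niche) with 1 library left out; with library size only, the ratios in metastatic marrow and in niche macrophages were 0.22 and 0.12. Signs turned for Rps16 (0.20) and Rpl10a (-0.25) in metastatic marrow, Rpl21 (-2.16) in niche macrophages and Rpl31 (0.40) in the difference of effects with pseudogene rows added. They turned for Rps26 with limma-voom (-1.16) and without general normal replicate 2 (-4.97) or niche metastatic replicate 3 (-0.64), and for Rpl12 without general normal replicate 1 (4.68). With 1 library left out, Rpl10a in metastatic marrow ran from 3.34 to 7.05, Rpl21 in niche macrophages from 4.49 to 7.43, Rpl31 in the difference of effects from -11.84 to -6.54, Rpl12 from -7.03 to 4.68, Rps26 from -4.97 to 5.62, and Rps4l in niche macrophages from -8.53 to 0, the last without niche normal C. Depth limits members near 3 counts.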
